A study of Mus musculus with 6 samples.

Results

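The genes described here carry an interferon signal from the cell surface to the nucleus. They are 4 receptor subunits, Ifnar1, Ifnar2, Ifngr1 and Ifngr2, and 5 transcription factors, Stat2, Irf1, Irf3, Irf7 and Irf9. They were chosen by name, with earlier results of these data known. The choice took 9 of the 27179 genes in the bulk table, and all 9 were also found among the 30716 genes of the single-cell matrices. The comparison asks which layer of the pathway differs when cardiomyocytes are grown with adult instead of neonatal fibroblasts, and in which cells.

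Type I interferons (interferon alpha and beta) bind the pair Ifnar1 and Ifnar2, whereas interferon gamma binds the pair Ifngr1 and Ifngr2. Kinases of the Jak family, attached to the receptors, phosphorylate STAT proteins. Stat2, a second STAT protein and Irf9 then form the complex ISGF3, which binds the interferon-stimulated response element (ISRE), while the STAT dimers formed after interferon gamma bind the gamma-activated site (GAS). Irf3 and Irf7 are switched on by sensors of foreign nucleic acid and drive interferon genes. Irf7, Irf9 and Stat2 are also interferon targets themselves, and Irf1 is a classical target of interferon gamma.

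In the study, neonatal C57BL/6 mouse cardiomyocytes (immature cardiomyocytes, imCMs) were co-cultured with cardiac fibroblasts of the same strain, either neonatal (NF) or adult (AF). Bulk RNA-Seq of the cardiomyocyte fraction gave 2 libraries with NFs (imCM-NF) and 2 with AFs (imCM-AF). Single cells in a nanowell system, with unique molecular identifiers (UMIs) marking transcripts, gave 1 library labelled cardiomyocytes and 1 labelled fibroblasts. No library of imCMs sequenced in bulk without fibroblasts was analysed here, the fibroblasts had been passaged in culture, and more AFs than NFs were plated per imCM according to the study's methods. The sources differ on how cardiomyocytes were parted from the other cells before RNA extraction: the labels name repeated centrifugation and the study's methods name flow sorting, a gate meant to remove fibroblasts. Which applies to which library is not settled here, so that the name of a library or well does not by itself give the type of every cell in it. Nothing in the labels says that the 2 bulk libraries of a group came from separate cultures, so p values measure the spread between these libraries, which may be technical.

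Each single-cell well has a name in the deposited report. Names in the cardiomyocytes library were NFNCM, AFNCM and NCM0, and names in the fibroblasts library were NF, AF, NF0 and AF0, each followed by the number of a source well (3 for NFNCM and AFNCM, 2 for the others). The letters NF and AF are read here as in the bulk labels. The labels do not say what "0" stands for or whether source wells are separate cultures. Well names were therefore compared without a test, as sums of UMIs over wells scaled to a common total (CPM) with exact 95% Poisson intervals that cover counting error only.

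Total counts lay between 9278909 and 12088577 in the bulk libraries, and libraries of a group differed beyond counting noise (chi-square per degree of freedom 8.42 and 8.60). After filtering, 2247 of 2462 wells that were not controls were kept, 170 to 523 per well name, with median UMIs between 16045 for NCM0 and 38627 for AF0. In both libraries 269 well barcodes occurred. Values without them were computed only for AFNCM against NFNCM, AF against NF and AF0 against NF0, and some of these are given below. Bulk libraries held fibroblast transcripts too: the summed level of 12 fibroblast markers was 18919 and 21054 CPM with NFs and 12928 and 10252 CPM with AFs, and 8 of 12 markers were called lower in imCM-AF. The 14 cardiomyocyte markers summed to 33098 to 47115 CPM and overlapped between groups, with 3 of 14 called higher. Endothelial markers summed to 1462 and 1562 CPM with NFs and 1137 and 1021 CPM with AFs (5 of 10 called lower, 0 higher). Smooth muscle and pericyte markers summed to 802 and 782 CPM against 595 and 553 CPM (3 of 8 called lower, 1 higher), and epicardial markers overlapped, at 104 to 153 CPM (1 of 7 called lower). Macrophage markers stayed low, at 67.7 to 92.2 CPM for 11 genes (2 called lower), and of 9 lymphoid and plasmacytoid markers all but Cd79a and Ccr9 were at 0 in all 4 libraries. The part of these cells in the results below was not tested, and in bulk samples fewer cells of a type and less RNA per cell cannot be told apart.

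Start-site windows of the members, from 250 bases before to 50 after the annotated start (RefSeq, GRCm38.p6), were searched on both strands for ISRE (GAAA, any 2 bases, GAAA) and GAS (TTCNNNGAA). ISRE occurred in 3.44% and GAS in 8.30% of 32851 windows of all genes. The 3 stretches below are shown because they hold the matches lying wholly before a member's start. The matched letters are in capitals and each stretch is read on the plus strand, which is the strand of all 3 genes.
Stat2, chr10:128270248-128270357: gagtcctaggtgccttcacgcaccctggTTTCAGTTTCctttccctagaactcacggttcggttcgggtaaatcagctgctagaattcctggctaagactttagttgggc
Irf1, chr11:53769879-53769988: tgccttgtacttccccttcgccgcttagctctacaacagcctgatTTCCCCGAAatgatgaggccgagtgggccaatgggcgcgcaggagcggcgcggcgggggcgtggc
Ifnar2, chr16:91372533-91372642: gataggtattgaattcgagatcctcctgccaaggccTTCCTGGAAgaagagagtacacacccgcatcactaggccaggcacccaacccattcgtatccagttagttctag
The match upstream of Stat2 is ISRE read on the minus strand, 222 to 213 bases before the start. GAS lies 90 to 82 bases before the start of Irf1 and 214 to 206 bases before that of Ifnar2. A further GAS match of Ifnar1 crosses its start site. The windows of Irf3, Irf7, Irf9, Ifngr1 and Ifngr2 held neither motif, which says only that these letters are not in this window. A match is a description and not a shown binding site.

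In the bulk libraries 3 of the 5 transcription factors were called higher with adult fibroblasts and none of the 4 receptors was called. Ifnar1 and Ifngr1 were lower by less than the fold threshold. Calls needed an absolute log2 fold change above 0.58 and an adjusted p below 0.05 (edgeR quasi-likelihood test, Benjamini-Hochberg adjustment over 14041 genes). Irf7, Stat2 and Irf1 were called higher and no member was called lower, where 6.15% of all tested genes were called higher and 4.99% lower (11.1% in either direction). The libraries of the groups did not overlap for 7 of the 9 members, all but Ifnar2 and Irf3, and for 65.9% of all tested genes. The median log2 fold change was 0.99 over the 5 factors and -0.21 over the 4 receptors, against 0.0011 over all tested genes.

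Irf7 (Entrez 54123, chromosome 7, 141263183 to 141266499), the factor that amplifies the interferon response, was at 125 and 75.5 CPM in the imCM-NF libraries and at 353 and 346 CPM in the imCM-AF libraries. Both imCM-AF libraries lay well above both imCM-NF libraries, and the imCM-NF libraries lay further apart than the imCM-AF ones. The log2 fold change was 1.81 ± 0.16 (SE, n = 2 per group, edgeR adjusted p 5.28e-07), and 3.51-fold in linear terms. Leaving out a library gave values between 1.49 and 2.21.

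Stat2 (Entrez 20847, chromosome 10, 128270498 to 128292853), the STAT partner specific to the type I and lambda routes, was at 79.1 and 55.7 CPM in the imCM-NF libraries and at 127 and 146 CPM in the imCM-AF libraries. Its log2 fold change was 1.03 ± 0.13 (SE, edgeR adjusted p 2.48e-05). Irf1 (Entrez 16362, chromosome 11, 53770014 to 53778374) was at 36.7 and 34.9 CPM in the imCM-NF libraries and at 67.4 and 74.3 CPM in the imCM-AF libraries. Its log2 fold change was 0.99 ± 0.10 (SE, edgeR adjusted p 2.16e-06). For both genes the groups did not overlap. The libraries of each group were close to each other beside the gap between the groups for Irf1. For Stat2 the imCM-NF libraries, at 79.1 and 55.7 CPM, were spread more widely beside that gap.

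Irf9 (Entrez 16391, chromosome 14, 55603985 to 55610030), the DNA-binding subunit of ISGF3, was at 73.0 and 63.1 CPM in the imCM-NF libraries and at 90.4 and 95.4 CPM in the imCM-AF libraries. Its log2 fold change of 0.45 ± 0.10 (SE, edgeR adjusted p 0.00297) passed the p threshold but not the fold threshold. Irf3 (Entrez 54131, chromosome 7, 44997648 to 45002848), which is made constitutively and switched on by phosphorylation, stood between 37.3 and 40.1 CPM in all 4 libraries, with a log2 fold change of 0.04 ± 0.10 (SE, edgeR adjusted p 0.784).

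Of the type I receptor subunits, Ifnar1 (Entrez 15975, chromosome 16, 91485032 to 91510523) was at 89.2 and 88.6 CPM in the imCM-NF libraries and at 74.7 and 66.4 CPM in the imCM-AF libraries. Its log2 fold change was -0.33 ± 0.10 (SE, edgeR adjusted p 0.0163), under the fold threshold. Ifnar2 (Entrez 15976, chromosome 16, 91372783 to 91405589) was at 72.7 and 86.7 CPM in the imCM-NF libraries and at 84.4 and 79.7 CPM in the imCM-AF libraries, so that the imCM-AF libraries lay inside the range of the imCM-NF libraries. The log2 fold change of Ifnar2 was 0.04 ± 0.10 (SE, edgeR adjusted p 0.817).

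Of the gamma receptor subunits, Ifngr1 (Entrez 15979, chromosome 10, 19591949 to 19610229), the ligand-binding chain, was at 48.9 and 58.2 CPM in the imCM-NF libraries and at 40.5 and 37.7 CPM in the imCM-AF libraries. Its log2 fold change was -0.46 ± 0.11 (SE, edgeR adjusted p 0.0044), again under the fold threshold. Ifngr2 (Entrez 15980, chromosome 16, 91547059 to 91564007), the signalling chain, was at 230.4 and 212 CPM in the imCM-NF libraries and at 205 and 209 CPM in the imCM-AF libraries, with a log2 fold change of -0.10 ± 0.10 (SE, edgeR adjusted p 0.506). By the adjusted p alone 6 of 9 members would be called, 4 factors higher and Ifnar1 and Ifngr1 lower, where 27% of all tested genes would be (12.5% higher and 14.5% lower). Exons of Ifnar2 and Irf9 overlap another gene on the same strand, and those of Irf1, Irf3 and Irf7 one on the other strand. Whether counting used strand is not given in the sources used here, so reads in the overlaps are uncertain.

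**Figure D1:**
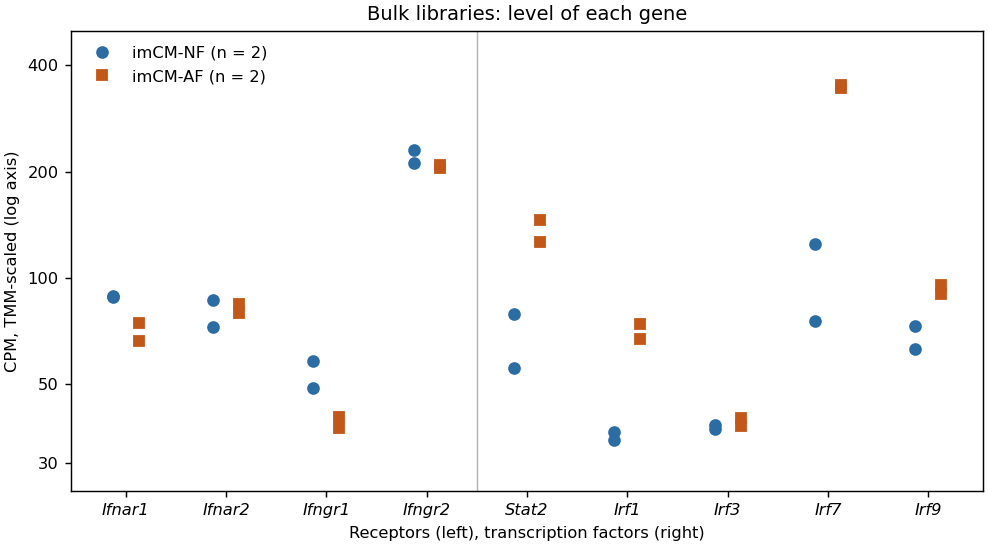
TMM-scaled CPM (log axis) of each gene in the 2 imCM-NF libraries (circles) and the 2 imCM-AF libraries (squares), with receptors left of the line and transcription factors right of it. Irf7, Stat2 and Irf1 stand higher in both imCM-AF libraries, while Ifnar2 and Irf3 overlap between the groups.

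Levels of different genes were compared as CPM per kilobase of the union of all exons of a gene in the GENCODE annotation. This union can be longer than a transcript, and the study's methods name a RefSeq annotation for the counts. For Irf7 the union, 3776 bases, was longer than the RefSeq span given above. The order of genes is therefore approximate. In imCM-NF, Ifngr2 stood first with a mean of 58.7 CPM per kilobase, followed by Irf7 with 26.6 and Ifnar2 with 23.9, whose libraries overlap. Ifngr1 and Ifnar1 followed, and Irf9, Stat2, Irf3 and Irf1 stood lowest, at 12.6 down to 9.01 CPM per kilobase, with overlapping libraries from Irf9 to Irf3. In imCM-AF, Irf7 stood first at 92.7 CPM per kilobase, above Ifngr2 at 54.9. Ifnar2 and Stat2 came next with overlapping libraries, and Ifnar1 and Irf3 were lowest, at 11.9 and 11.3 CPM per kilobase.

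The rest of the pathway was read in lists written from general knowledge, but with earlier results of these data known. A list was described by its counts and its median log2 fold change, which are therefore not hits on an independent list. Receptor kinases were not called in bulk: the log2 fold change was 0.08 ± 0.10 for Jak1, 0.24 ± 0.10 for Jak2 and -0.22 ± 0.11 for Tyk2 (SE, edgeR adjusted p 0.602, 0.0739 and 0.161). None of 2 lambda receptor genes and none of 4 tested other STAT genes was called. None of 21 interferon ligand genes passed the expression filter, and their highest level in any library was 0.64 CPM.

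Among 10 inhibitors of the pathway, Usp18, which blocks signalling at Ifnar2, rose from 73.7 and 36.1 CPM to 155 and 171 CPM (1.59 ± 0.19 on the log2 scale, edgeR adjusted p 1.67e-05). Socs3, a feedback inhibitor of Jak kinases, rose from 24.7 and 26.2 CPM to 48.6 and 44.5 CPM (0.87 ± 0.11, edgeR adjusted p 1.83e-05). The other 8 were not called, and the median over the 10 was 0.06. Of 14 tested sensors and adaptors 5 were called higher and 0 lower (median 0.14), led by the nucleic acid sensors Zbp1 (1.44 ± 0.16), Ifih1 (1.33 ± 0.15) and Tlr3 (0.84 ± 0.15; edgeR adjusted p 8.18e-06, 5.91e-06 and 7.55e-04).

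Downstream, 21 of 22 type I target genes were called higher and 0 lower, with a median log2 fold change of 1.35. Over all tested genes 6.15% were called higher and 4.99% lower. The largest rises were those of the oligoadenylate synthetases Oas1a (2.79 ± 0.18) and Oas2 (2.76 ± 0.17) and of the helicase-like gene Ddx60 (2.28 ± 0.21; edgeR adjusted p 1.79e-08, 1.56e-08 and 6.55e-07). The Oas genes and Igtp have close relatives in the genome, and how shared reads were divided makes their counts uncertain. Of 16 tested gamma target genes 11 were called higher and 0 lower, with a median of 0.86. The names of these lists do not show which interferon, if any, acted on the genes, which was not tested. Nlrc5, the activator of MHC class I genes, rose by 1.99 ± 0.20, and the immunity-related GTPases Iigp1 and Igtp by 1.48 ± 0.20 and 1.18 ± 0.17 (edgeR adjusted p 2.32e-06, 5.93e-05 and 1.22e-04).

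**Figure D2:**
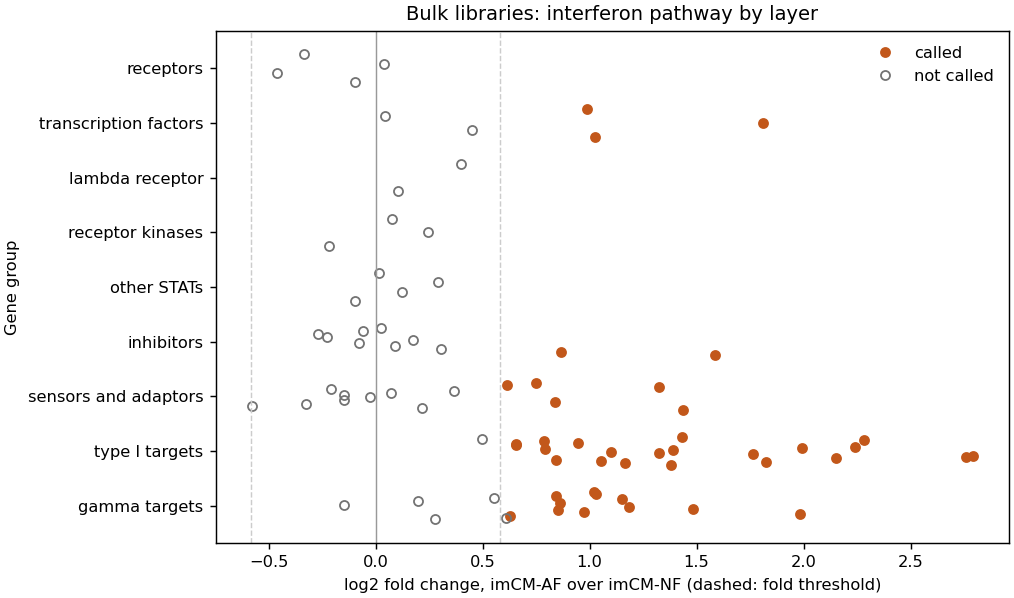
Log2 fold change of each tested gene of the layers shown (points), imCM-AF over imCM-NF, grouped by layer, with called genes filled and the fold threshold dashed. The 4 receptors and 3 receptor kinases hold no called gene, against 3 of 5 transcription factors, 21 of 22 type I targets and 11 of 16 gamma targets.

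In the single cells the factors of ISGF3 and Irf7 were far higher in wells named for adult fibroblasts, in both libraries. Between AFNCM and NFNCM wells, Irf7, Stat2, Irf9 and Ifnar2 were higher with counting intervals apart, where 29% of 15288 genes were higher by this measure, and Ifngr2 was lower, where 13.4% were. The median log2 ratio over those genes was 0.14. For Irf7, Stat2, Irf9 and Ifnar2 every AFNCM source well also stood above every NFNCM source well, as it did for 13.4% of genes, while no member had all AFNCM source wells below, as 5.42% of genes had.

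Irf7 stood at 2.78, 0.223 and 1.08 CPM in the source wells NFNCM1 to NFNCM3 and at 22.4, 48.1 and 41.3 CPM in AFNCM1 to AFNCM3. Summed over source wells, 17 UMIs in NFNCM stood against 594 in AFNCM, a ratio of 30.2 (95% counting interval 18.7 to 52.3). As a mean over wells in place of a sum the ratio was 64.8, and without the shared barcodes it was 25.1. In the imCM-NF bulk libraries Irf7 was at 75.5 CPM or more, Stat2 at 55.7 CPM or more and Irf9 at 63.1 CPM or more. Bulk CPM are scaled read counts and not UMIs, so these levels cannot be set directly against those of the wells.

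Stat2 stood at 4.55, 4.46 and 7.14 CPM in the NFNCM source wells and at 16.0, 26.8 and 25.7 CPM in the AFNCM source wells, a ratio of 4.38 (3.39 to 5.73), or 7.11 as a mean over wells. Irf9 stood at 3.04, 8.25 and 3.46 CPM against 23.8, 25.9 and 22.3 CPM, a ratio of 4.82 (3.69 to 6.38). The ratio of Irf9 became 11.1 as a mean over wells and 8.54 without the shared barcodes. All AFNCM source wells were thus above all NFNCM source wells for both genes.

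Ifnar2 went another way than in bulk. Its source wells stood at 19.99, 30.5 and 40.2 CPM in NFNCM and at 45.4, 87.3 and 62.6 CPM in AFNCM, a ratio of 2.20 (1.96 to 2.48), while the bulk libraries overlapped. Irf1, called higher in bulk, had 26.8, 14.5 and 22.9 CPM in NFNCM and 19.9, 16.1 and 18.4 CPM in AFNCM, and its source wells overlapped. The difference between the bulk and the single-cell values of Ifnar2, Irf1 and Irf7 was not tested.

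Irf3 was at 19.3 CPM (17.0 to 21.8) in NFNCM and 19.2 CPM (17.0 to 21.5) in AFNCM. Ifnar1 and Ifngr1 had ratios of 1.15 (1.01 to 1.31) and 1.06 (0.943 to 1.19), with overlapping source wells. Ifngr2, the highest member in these wells, was at 133 CPM (127 to 139) in NFNCM and 119 CPM (114 to 125) in AFNCM, with overlapping source wells, and its intervals also overlapped without the shared barcodes.

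NCM0 wells, the remaining name of the cardiomyocytes library, resembled NFNCM wells in Irf7 (2.75 CPM, interval 1.57 to 4.46) and Ifnar2 (31.6 CPM, 27.2 to 36.5). Stat2 stood between the co-culture names, at 10.99 CPM (8.46 to 14.0), with a ratio of NFNCM over NCM0 of 0.495 (0.348 to 0.705) and of AFNCM over NCM0 of 2.16 (1.66 to 2.87). Both ratios share the NCM0 wells. Over NCM0, 6 members were higher and 1 was lower in AFNCM with intervals apart (25.6% and 21.6% of 14676 genes), and 5 and 1 with source wells apart (20.5% and 13.5%). In NFNCM these counts were 1 and 2 with intervals apart (16.2% and 25.1% of 13949 genes), and 1 and 2 with source wells apart (12% and 14.9%).

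In the fibroblasts library, Irf7 stood at 0.809 and 4.70 CPM in NF source wells and at 46.1 and 54.4 CPM in AF source wells, a ratio of 18.7 (11.8 to 31.4). Stat2 stood at 1.62 and 7.05 CPM against 50.4 and 46.4 CPM, a ratio of 11.5 (7.94 to 17.3). Irf9 stood at 3.77 and 0.881 CPM against 26.9 and 25.4 CPM, a ratio of 10.96 (6.70 to 19.1), or 25.02 without the shared barcodes, which left 6 UMIs in NF wells. Ifnar2 stood at 28.8 and 26.1 CPM against 90.9 and 102 CPM, a ratio of 3.49 (2.99 to 4.10). These 4 genes were again higher with source wells apart, where 27.4% of 13832 genes were, and Ifngr2 was lower, at 83.3 and 89.0 CPM against 61.2 and 65.3 CPM, where 16.4% were. With intervals apart 5 members were higher and 1 was lower, where 32.9% and 18.9% of genes were, the fifth being Ifnar1, whose source wells overlapped and whose intervals overlapped too without the shared barcodes.

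Wells of the fibroblasts library named NF0 and AF0 showed the same order, although they differed in which marker sets led them, as given below. Irf7 stood at 0 and 1.98 CPM in NF0 source wells, where a floor of 3 counts is 0.655 CPM and the upper Poisson limit of 0 counts 0.805 CPM, and at 42.7 and 26.8 CPM in AF0 source wells, a ratio of 26.6 (15.8 to 48.2), or 41.8 as a mean over wells and 41.2 with no filter on wells. Stat2 had a ratio of 8.44 (5.34 to 13.9), Irf9 of 3.69 (2.56 to 5.41) and Ifnar2 of 2.26 (1.94 to 2.63). With no filter on wells these ratios were 6.38, 4.21 and 1.55, the last outside its counting interval. Without the shared barcodes the ratios of Irf7 and Stat2 were 38.7 and 13.8. Irf3 was higher too, at 26.6 CPM in AF0 against 18.1 CPM in NF0. In all, 5 members were higher with source wells apart, where 27.8% of 14601 genes were, and Ifngr2 was lower, where 24.6% were. The same 6 members had intervals apart (31.2% of genes higher and 24.5% lower), except Ifngr2 without the shared barcodes.

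Between AF and AF0 wells Stat2 differed most, with 48.5 CPM (44.0 to 53.4) against 15.3 CPM (12.7 to 18.1), a ratio of 3.18 (2.61 to 3.91). Irf9, Ifnar2 and Irf7 had ratios of 2.06, 1.83 and 1.53, each with source wells apart. Irf1 had a ratio of 2.02 (1.67 to 2.44) between AF and AF0 and of 2.62 (2.21 to 3.12) between NF and NF0. Its AF source wells, at 20.7 and 60.4 CPM, overlapped those of AF0, whereas its NF source wells, at 37.5 and 59.1 CPM, lay above those of NF0, at 26.4 and 13.3 CPM. Between AF and AF0, 6 members were higher and 1, Irf3, was lower with intervals apart (29.2% and 31.2% of 14253 genes), and 4 and 1 with source wells apart (26.4% and 28%). Between NF and NF0, 2 were higher and 0 lower with intervals apart (17.6% and 30.7% of 14132 genes), and 3 and 0 with source wells apart (14.6% and 27.6%).

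**Figure D3:**
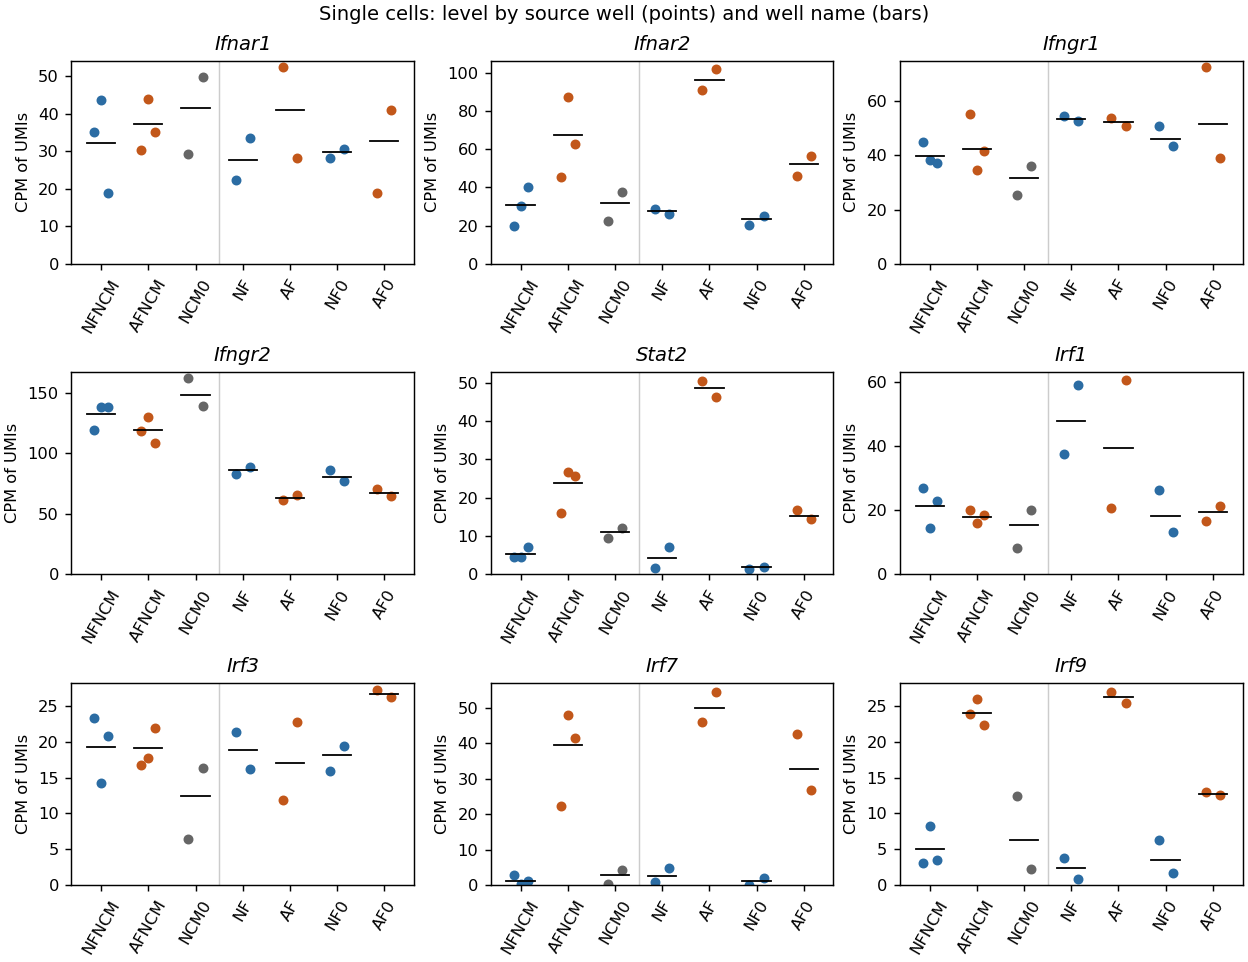
CPM of UMIs of each gene by source well (points) and summed over source wells (bars), by well name, with names of the cardiomyocytes library left of the line. Irf7, Irf9, Stat2 and Ifnar2 stand higher under AFNCM, AF and AF0 than under NFNCM, NF and NF0, and Ifngr2 is highest in the cardiomyocytes library.

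Across assays, the order of the layers can be read gene by gene. In bulk and in the 3 comparisons of adult-fibroblast with neonatal-fibroblast names (AFNCM over NFNCM, AF over NF, AF0 over NF0), Irf7 had the largest ratio of the 9 members, except that Irf9 (25.02) stood above Irf7 (20.4) between AF and NF without the shared barcodes. Irf9 was 1.37-fold in bulk and 3.69- to 10.96-fold in those 3 comparisons, or 2.61- to 25.02-fold without the shared barcodes. Irf3 had ratios of 0.993 and 0.901 in the first and second of them, with overlapping intervals, and of 1.47 between AF0 and NF0. Summed over the 4 receptors, the single-cell level was 236 CPM in NFNCM and 266 CPM in AFNCM, against 52.2 and 124 CPM for the 5 factors. In fibroblast wells the receptors summed to 195 CPM in NF and 253 CPM in AF and the factors to 75.9 and 181 CPM.

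**Figure D4:**
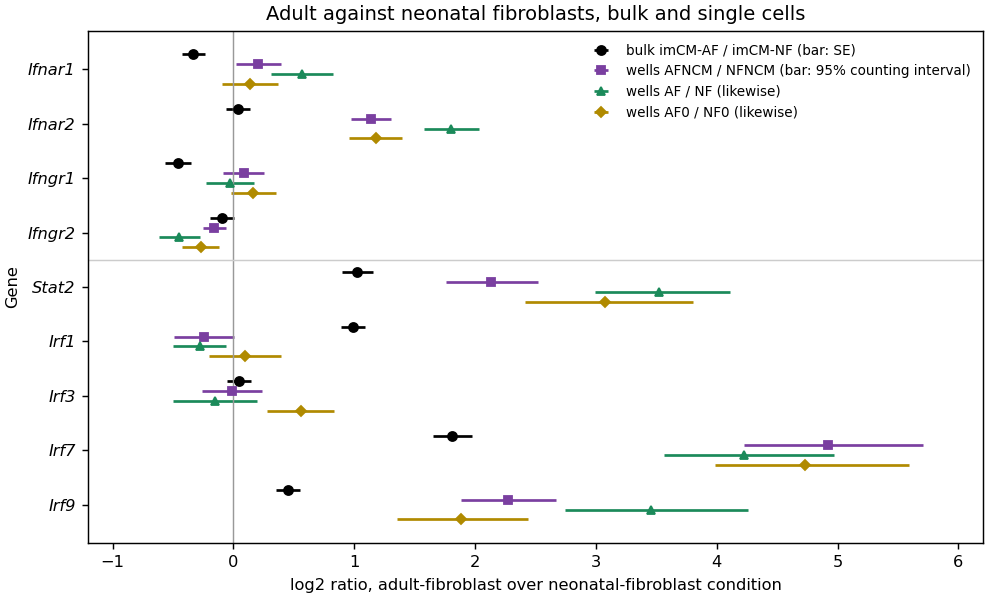
Log2 ratio of the adult-fibroblast over the neonatal-fibroblast condition for each gene in bulk (circles, bars are SE) and between single-cell well names (squares, triangles and diamonds, bars are 95% counting intervals). Irf7 lies furthest right in all 4 comparisons, and Ifnar2 lies near 0 in bulk and right of 0 in the single cells.

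Wells were then divided by which of 4 marker sets, of cardiomyocytes, fibroblasts, endothelial cells or macrophages, led each well. This is a range of scores and not a cell type. Cardiomyocyte markers led 464 of 523 NFNCM wells and 411 of 515 AFNCM wells, and fibroblast markers led 49 and 90 of them. The names of the cardiomyocytes library thus differed in their share of fibroblast-led wells, and the summed fibroblast markers were 1207 to 2008 CPM in NFNCM and 2667 to 3399 CPM in AFNCM source wells. Endothelial markers were higher too, at 36.5 to 189 CPM against 307 to 401 CPM, as were smooth muscle and pericyte markers, at 146 to 181 CPM against 275 to 298 CPM, and epicardial markers, at 19.5 to 28.5 CPM against 45.9 to 82.2 CPM. With intervals apart, 9 of 12 fibroblast, 9 of 10 endothelial, 7 of 8 smooth muscle and pericyte and 3 of 7 epicardial markers were higher. Lower by this measure were 2, 0, 1 and 0 of them, where 29% of genes were higher and 13.4% lower. In bulk the fibroblast, endothelial, and smooth muscle and pericyte sums were instead lower with AFs, and the reason was not tested. Cardiomyocyte markers overlapped between source wells, at 43325 to 54167 CPM against 38631 to 46197 CPM. With intervals apart, 11 of these 14 markers were lower in AFNCM and 0 higher, where 13.4% and 29% of genes were. Macrophage markers overlapped, at 368 to 1187 CPM against 193 to 758 CPM. In the fibroblasts library, fibroblast markers led 205 of 256 NF wells and 208 of 219 AF wells. Cardiomyocyte markers led 32 NF and 5 AF wells, and endothelial markers 12 and 4. Fibroblast markers led 257 of 306 NF0 and 168 of 170 AF0 wells, and cardiomyocyte markers 38 and 1. Cardiomyocyte markers summed to 5685 CPM in NF0 and 286 CPM in AF0, and macrophage markers to 761 and 113 CPM. Endothelial markers summed to 117 and 530 CPM, epicardial to 36.3 and 279 CPM and fibroblast to 7113 and 6403 CPM. In fibroblast-led wells alone, AF0 over NF0 ratios were 30.6 for Irf7, 8.05 for Stat2, 3.27 for Irf9 and 2.32 for Ifnar2.

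Within cardiomyocyte-led wells alone the ratios of Irf7, Irf9 and Stat2 were close to those in all wells. Irf7 stood at 1.35 CPM in NFNCM and 38.5 CPM in AFNCM (ratio 28.4, 17.1 to 51.2), Irf9 at 4.15 and 21.6 CPM (5.22, 3.80 to 7.31) and Stat2 at 4.87 and 19.6 CPM (4.03, 2.98 to 5.52). Ifnar2 stood at 29.9 and 51.7 CPM (1.73, 1.51 to 1.99), and Irf1 at 16.4 and 16.6 CPM (1.01, 0.820 to 1.241).

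In fibroblast-led wells of the same library, Ifnar2 stood at 29.9 CPM in NFNCM and 129.7 CPM in AFNCM, a ratio of 4.34 (3.21 to 6.00). The NFNCM level was that of cardiomyocyte-led NFNCM wells, also at 29.9 CPM, whereas the AFNCM level was above the 51.7 CPM of cardiomyocyte-led AFNCM wells. Stat2 had 0 UMIs in the 49 NFNCM wells, for which a floor of 3 counts is 1.87 CPM and the upper Poisson limit 2.30 CPM, and 45.1 CPM (37.6 to 53.7) in the 90 AFNCM wells. Irf7 had 1 UMI, or 0.622 CPM, against 44.8 CPM, a ratio of 72.0 (12.7 to 2864). Irf1 was lower in AFNCM, at 24.7 CPM against 46.0 CPM (0.536, 0.381 to 0.753). In fibroblast-led wells of the fibroblasts library it was at 38.7 CPM in AF against 55.1 CPM in NF. Over all wells of these names its ratio was 0.825, with overlapping counting intervals. Its AF source wells, at 20.7 and 60.4 CPM, there lay on both sides of those of NF, at 37.5 and 59.1 CPM. In fibroblast-led wells of the fibroblasts library Ifnar1 was at 42.3 CPM in AF against 21.7 CPM in NF, a ratio of 1.95 (1.59 to 2.41). Over wells of any leading marker its source wells overlapped. There its ratio without the shared barcodes was 1.16, with overlapping intervals.

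**Figure D5:**
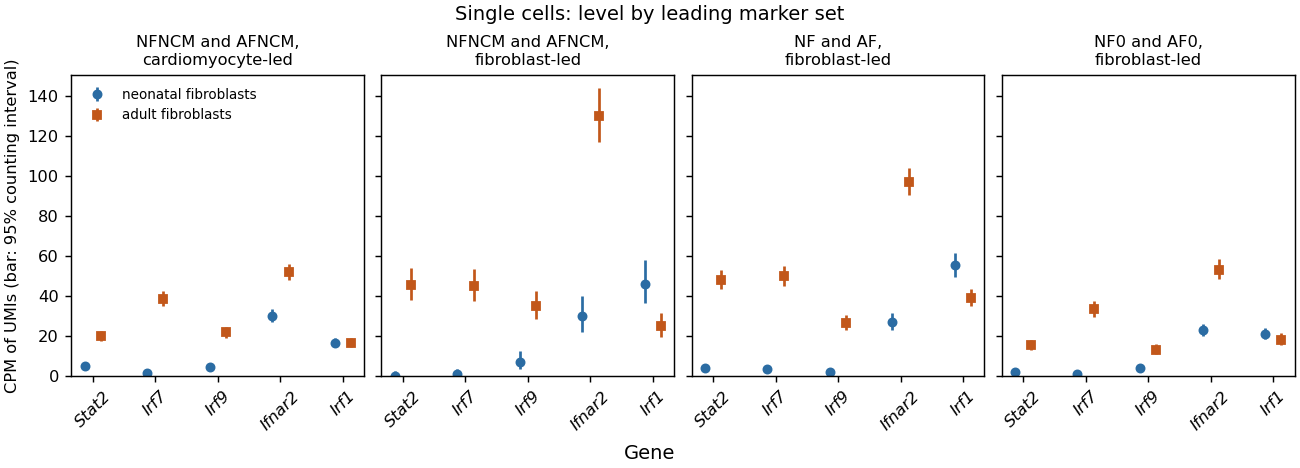
CPM of UMIs with 95% counting intervals for 5 genes in wells led by cardiomyocyte or fibroblast markers, under neonatal-fibroblast names (circles) and adult-fibroblast names (squares). Stat2, Irf7, Irf9 and Ifnar2 are higher under adult-fibroblast names in each panel, and Irf1 is not.

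The cardiomyocyte gene Tnnt2 served as a measure of transcripts from other cells in the fibroblasts library. It had UMIs in 80.3% of NF wells and 23.6% of AF wells at 5000 UMIs per well (92.6% and 46.1% before thinning to that number, median UMIs 17156 and 28923). Irf7 had UMIs in 13.7% (10.6 to 17.3) of 438 AFNCM wells and in 0.244% (0.00617 to 1.35) of 410 NFNCM wells at the same depth (32.6% and 1.34% before). No number of expressing cells is read from these shares, and 77 and 113 shallower wells were left out.

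The other layers of the pathway were read in the same wells. Between AFNCM and NFNCM wells, 21 of 22 type I target genes and 13 of 17 gamma target genes were higher with intervals apart. None was lower, and by this measure 29% of 15288 genes were higher and 13.4% lower. The type I targets summed to 1195 CPM in AFNCM against 102.6 CPM in NFNCM. Jak1 was at 76.7 CPM in AFNCM and 48.6 CPM in NFNCM, Jak2 at 28.2 and 10.9 CPM, both with intervals apart, and Tyk2 at 5.30 and 7.58 CPM. The inhibitor Usp18 was at 77.4 CPM in AFNCM and 1.15 CPM in NFNCM, and Socs3 at 16.2 and 6.35 CPM. Of the sensors, Zbp1 was at 25.5 and 0.230 CPM and Ifih1 at 44.3 and 3.52 CPM. Interferon ligand genes, of which 13 were in the matrices, gave 68 UMIs in all kept wells, 8 each in NFNCM and AFNCM and 28 in NF0.

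Genes whose level over the 16 source wells was most like the mean of Stat2, Irf7 and Irf9 were Xaf1 (Pearson r 0.945), Gbp9 (0.944), Ifi44 (0.937), Trim30a (0.935) and Lcn2 (0.933), out of 9077 genes. Most like the mean of the 4 receptors were Igtp (0.853), Socs3 (0.826), Trim25 (0.814), Chd7 (0.793) and Irgm2 (0.788). These correlations are descriptions over 16 points that share 2 libraries, and they carry no test.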

How the data were processed

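The authors deposited raw counts per gene for the bulk libraries, made by aligning reads to mm10 with Subread and counting unique reads with featureCounts (the study's methods give a version of the R package, whereas the submitters' processing notes list Subread 1.4.6-p1 with no role), and UMI counts per gene and well for the single cells, aligned with STAR 2.5.2b (per the labels and the study's methods). The deposited report tables also give read pairs, aligned pairs and a name per well. Those raw counts were used as deposited.

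Genes with CPM over 1 in at least 2 libraries were tested with edgeR 4.0.16 (R 4.3.3), with TMM scaling and a model of group alone, and SE is the log2 fold change divided by the square root of F. Alternatives used limma 3.58.1 and DESeq2 1.42.0. Of 27179 Entrez identifiers, 1904 had no symbol (3.52% of counts). The fit was tested on simulated data. Filters on wells asked for 500 genes or more, an aligned share of read pairs above 50% and UMIs no more than 2 SD from the mean of all wells. Spike-in columns (85 in the cardiomyocytes and 79 in the fibroblasts matrix) and 37 mitochondrial genes were left out, and no doublet caller was run. Ratios have exact conditional binomial intervals. A source-well comparison is apart where no values overlap.

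Genes named are all 9 members, the receptor kinases, up to 3 called genes of each list with the largest rise and fall, and the 5 most like each pattern. Members and lists were chosen with earlier results of these data known. Some genes of the pathway are not reported here. Sequences are from RefSeq (GRCm38.p6, the assembly of mm10), and all 9 members matched.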

Additional observations from a re-analysis of the deposited data

How the results depend on the processing

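The 9 members were refitted under 11 alternatives each, which changed scaling, filter, tool, replicate block or a left-out library. Irf7, Stat2 and Irf1 kept direction and call in all 11, with values over the fits without a library of 1.49 to 2.21, 0.80 to 1.29 and 0.92 to 1.07. Irf9 (0.36 to 0.56), Irf3 (0.01 to 0.10), Ifnar1 (-0.41 to -0.24), Ifngr1 (-0.58 to -0.32) and Ifngr2 (-0.15 to -0.04) kept their direction and were called in none. Ifnar2 turned from 0.04 to -0.082 without imCM-NF replicate 1, and ranged to 0.18, never called. The cause was not tested.

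The count of members called was 3 in all of these refits, 6 by the adjusted p alone and 2 at an absolute log2 fold change over 1. Over all genes, 1564 calls became 3789 by the adjusted p alone and 565 at the stricter fold, and lay between 879 and 1929 without a library, the lowest being 879 with imCM-NF replicate 2 left out and 988 with imCM-AF replicate 2 left out. The 39 called genes of the pathway lists became 24 at the stricter fold and 30 to 42 without a library. With the replicate block 1430 genes and 3 members were called. Same-numbered libraries deviated with a correlation of -0.13, so a crossed block was added after the data had been seen, and gave 1668 genes and 3 members. The median over all genes lay between -0.0036 and 0.043 under all alternatives.

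The 5 members with intervals apart between AFNCM and NFNCM wells numbered 5 with the gene minimum alone, with no well filter and among wells led by their own markers, and 4 without the shared barcodes, an alternative added after the data had been seen. A mean over wells has no counting interval and gave no such count. Under the well filters, the restriction to own markers and the mean over wells, 32 ratios of members lay outside the counting interval of the main value. The other 76 lay inside, for AFNCM over NFNCM, AF over NF and AF0 over NF0. Of the CPM values by well name, 64 lay outside and 188 inside. With 1 library of each kind, single-cell values have no replicate check.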

Other observations

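Control wells were read as well. The 5 wells of each library named Neg_Ctrl held 0 UMIs of the 9 genes among 1465 UMIs in the cardiomyocytes library and 0 among 3587 in the fibroblasts library. The 5 of each library named Pos_Ctrl held 3 UMIs among 19026 and 6 among 49439.

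Lcn2, an iron-binding acute-phase gene, stood among the 5 genes most like Stat2, Irf7 and Irf9 and reached 349.7 CPM in the AF1 source well, from 0.216 CPM at its lowest. Xaf1 ranged from 2.01 to 211 CPM and was highest in AF1 as well, whereas Ifi44 was highest in AFNCM3, at 97.8 CPM.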
